A study of Mus musculus with 6 samples.

Results

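Malat1, Neat1, Gas5, Snhg1, Snhg5, Snhg8 and Snhg12 are long non-coding RNA genes of the mouse. These 7 rows were taken by gene symbol from the 51789 genes of the deposited count table, and all 7 passed the filter on low counts that left 10397 genes for testing. The libraries came from bone marrow neutrophils isolated with Ly6G beads at a stated purity above 95%, and the study concerns the role of syntaphilin, the mitochondrial anchoring protein encoded by Snph, in neutrophil migration in cancer. One group of 3 libraries is labelled WT (Snph control) and the other group of 3 is labelled KO (Snph knockout). Strain, age, sex, the Snph allele, tumour status and whether the samples came from separate animals are not stated. Each p-value therefore covers the spread among these libraries alone, and that spread may be technical.

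Malat1 and Neat1 are neighbouring nuclear RNAs. Malat1 collects in nuclear speckles, the bodies that store splicing factors, and Neat1 is the scaffold of paraspeckles, bodies that hold RNA-binding proteins and certain RNAs. Gas5 and the Snhg genes are hosts of small nucleolar RNAs (snoRNAs), which are cut from their introns and guide the chemical modification of ribosomal RNA. The spliced host RNAs commonly begin with the pyrimidine tract of translation-machinery genes (5′ TOP) and are known as substrates of nonsense-mediated decay.

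Total counts were between 7018388 and 9664381 per library, and neutrophil RNAs dominated all of them. The 12 neutrophil markers, S100a8 and S100a9 among them, summed to 285229 to 306683 CPM (counts scaled to a common library size with TMM factors) in the WT-labelled and 326225 to 348022 CPM in the KO-labelled libraries, and none was at 0. Snph itself was at 0 counts in all 3 libraries labelled WT, and KO 1, 2 and 3 held 5, 2 and 8 counts. These counts go against the labels (exact two-sided permutation test, p = 0.1, the smallest that 3 against 3 allow). Which exons the allele lacks is not stated, so a direction below is that of the libraries labelled KO against those labelled WT. On the first principal component KO 3, at -3.98, lay between the other KO-labelled libraries (23.5 and 29.2) and the WT-labelled ones (-18.3 to -13.1).

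Malat1 was lower in the libraries labelled KO, and the other 6 genes did not pass the test. Malat1 was 1.40-fold lower (95% interval 1.21 to 1.62), and all 3 libraries labelled KO lay below all 3 labelled WT. Such a separation in this direction was seen for 9.3% of all tested genes. Neat1, encoded 22036 bases away on the same strand, was at almost the same mean level in both groups. Across all genes 107 passed the 0.05 threshold on Benjamini-Hochberg adjusted p (quasi-likelihood test of edgeR), 1.03% of those tested, 82 of them lower and 25 higher. With scaling to total counts alone the split was 144 lower and 18 higher. DESeq2 called 82 lower and 64 higher. An unadjusted p under 0.05 by edgeR was seen for 1183 of the 10397 genes. Among the 7 genes 1 passed and 6 did not (0 of these 6 at an unadjusted p under 0.05 by edgeR or DESeq2, and 1 by limma-voom).

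**Figure D1:**
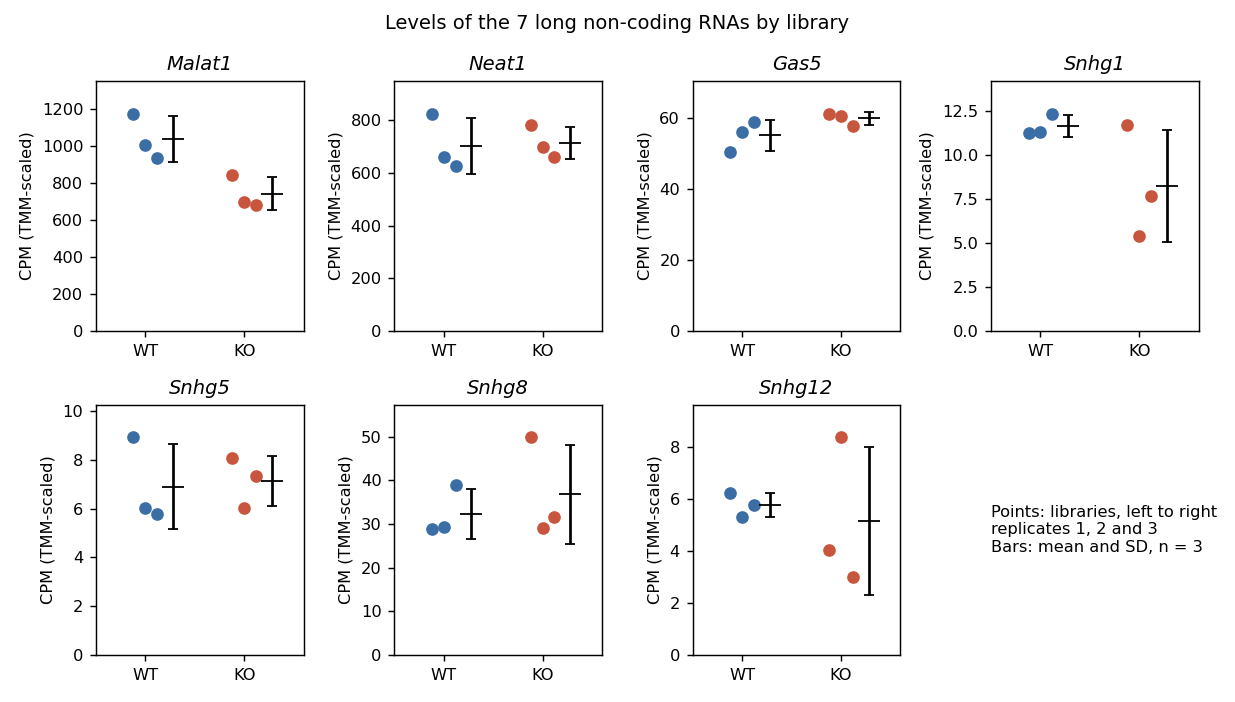
Level of each of the 7 RNAs in CPM (scaled by TMM factors, linear axes from 0) in the 3 libraries labelled WT and the 3 labelled KO, with mean and SD (n = 3) beside the points. Malat1 is the one RNA whose groups do not overlap, at 933 to 1174 CPM against 683 to 845 CPM. Groups without overlap were seen for 16.8% of all tested genes.

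Malat1 (ENSMUSG00000092341) lies on chromosome 19 at 5795690 to 5802672 on the minus strand (mm10, GENCODE vM21), where it is annotated as a lincRNA gene with 4 transcripts. Its main transcript, Malat1-201, is a single exon of 6983 bases. The 3′ end matters here because QuantSeq libraries, which are primed with oligo-dT, read tags from A-rich 3′ ends. The mature RNA is known to have no added poly(A) tail: RNase P cuts it behind an encoded A-rich tract, which is held in a triple helix by U-rich stretches upstream. That tract is a run of 12 A at base 6674 of the transcript, with 298 bases between its end and the annotated transcript end. It is the only run of 10 or more A in Malat1-201, and such a run occurs in 7.18% of the 141767 transcripts of the annotation, which differ in length. The annotated end is a second candidate end, with AATAAA, the polyadenylation signal, 16 bases before it. AATAAA occurs in the last 60 bases of 27.2% of annotated transcripts that are at least that long. The deposited counts carry no positions, so which end the tags came from was not tested. The sequences (GENCODE vM21, GRCm38, 5′ to 3′ on the minus strand) have the A run or the AATAAA in capitals; the first is chr19:5795973-5796099 and the second chr19:5795690-5795749.
Malat1 A-rich tract: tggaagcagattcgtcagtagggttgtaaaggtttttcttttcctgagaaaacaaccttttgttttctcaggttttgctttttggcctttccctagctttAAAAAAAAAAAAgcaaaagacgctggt
Malat1-201 annotated end: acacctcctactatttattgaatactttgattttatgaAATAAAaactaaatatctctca

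Malat1 had 9595, 9853 and 6948 counts in WT 1, 2 and 3 and 6285, 4754 and 6133 counts in KO 1, 2 and 3. These correspond to 1174, 1004 and 933 CPM in the libraries labelled WT and to 845, 698 and 683 CPM in those labelled KO. WT 1 was the highest library and KO 1 the highest of its group, and the 2 ranges were separate. Of all tested genes 16.8% had separate ranges, 9.3% with the libraries labelled KO lower. The means were 1037 ± 124 and 742 ± 89.5 CPM (SD, n = 3; log2 fold change -0.48, SE 0.10, edgeR adjusted p = 0.0264). The relative counting error, which covers sampling of reads only, was 1.07% at the mean count of the libraries labelled WT and 1.32% at that of the libraries labelled KO. The relative spread between libraries was larger, at 11.9% and 12.1%.

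The call of Malat1 rested on the full set of libraries. It ended without WT 1 (log2 fold change -0.39, adjusted p = 0.167), without WT 2 (-0.51, 0.114), without KO 2 (-0.44, 0.108) and without KO 3 (-0.43, 0.0915), while the direction stayed the same. It held without WT 3 (-0.55, 0.0187) and without KO 1 (-0.59, 0.00815), and in each of the 8 alternatives of tool, scaling, filter and block that used all libraries, with adjusted p between 2.0e-07 and 0.0268.

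**Figure D2:**
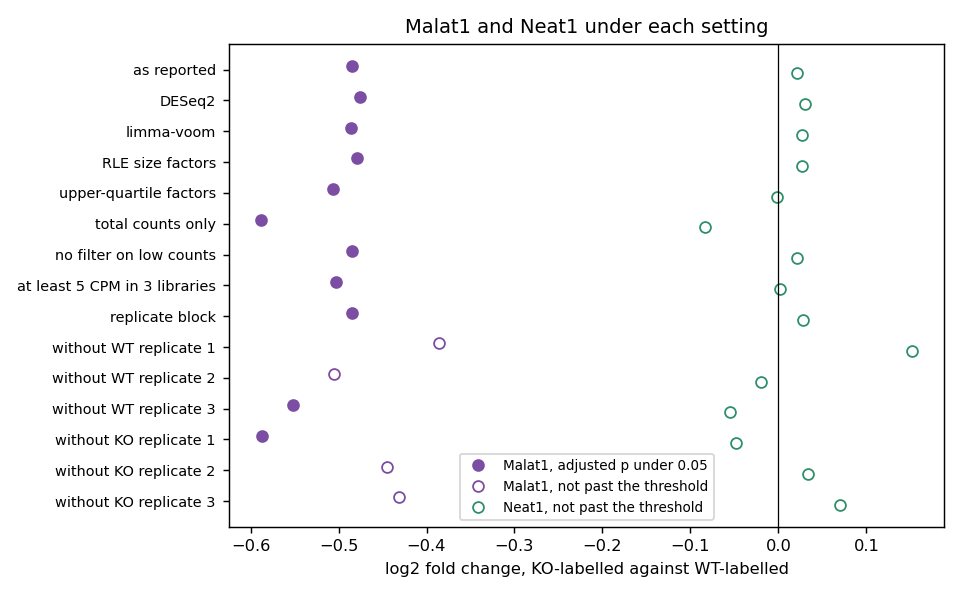
Log2 fold change (x axis) of Malat1 and Neat1, KO-labelled against WT-labelled, under each setting (y axis), with filled points for an adjusted p under 0.05. Malat1 stays between -0.59 and -0.39 and loses its call without WT 1, WT 2, KO 2 or KO 3; Neat1 lies between -0.08 and 0.15.

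Malat1 is an abundant RNA in these libraries, at rank 101 of the 10397 tested genes by mean CPM. Of the 101 genes that were at least as abundant, itself included, 5 passed the test. Malat1 had the lowest log2 fold change of the 101, a description made after its value was seen. It was also the 1 gene called lower among the 452 tested genes of GENCODE's long non-coding classes, some of which also hold genes known to encode proteins; Gm13822, an antisense RNA gene singled out after its value was seen, was the 1 called higher (log2 0.91, SE 0.20, adjusted p = 0.0397). The most abundant gene of these classes, Gm42418, singled out after its value was seen, was lower by nearly as much without passing: it was at 3119 ± 568 and 2315 ± 108 CPM (SD, n = 3; log2 -0.43, SE 0.10, edgeR adjusted p = 0.0698). The median of the 452 genes was 0.04, beside 0.0057 over all genes tested. The called share over all genes was 0.789% in the lower and 0.24% in the higher direction. Exons of 2 other annotated genes, Gm27694 and the antisense Gm37376, overlap those of Malat1, and both had 0 counts in every library.

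Markers of some other cell types also differed between the groups, not all in the direction of Malat1. Of the 12 macrophage markers 10 fell and none rose, with a median log2 fold change of -1.04, and their summed level was 1336 to 1395 CPM in the libraries labelled WT and 728 to 833 CPM in those labelled KO. Among them Cd5l was at 104 ± 3.9 and 46.5 ± 3.6 CPM and Vcam1 at 364 ± 26.2 and 178 ± 30.6 CPM (SD, n = 3). Csf1r was almost level, at 183 ± 13.8 and 182 ± 17.8 CPM (log2 -0.01, edgeR adjusted p = 0.974). Of 7 tested platelet markers 3 fell and none rose (median -0.94, summed level 445 to 501 and 390 to 426 CPM). Without WT 1 the platelet count was 1, and without WT 2, KO 2 or KO 3 it was 2. In the B and plasma cell list 3 of 10 rose and none fell (median 0.03; -0.07 with total counts and -0.03 with limma-voom), at 391 to 444 and 595 to 1362 CPM, with the highest sum in KO 2. That count was 1 with DESeq2 and with limma-voom, 0 without WT 1, WT 2 or WT 3 (edgeR, 4 at an unadjusted p under 0.05 in each) and 2 without KO 2. None of 8 erythroid markers passed by edgeR, DESeq2 or limma-voom, with 0 at an unadjusted p under 0.05 (1291 to 2134 and 1407 to 2791 CPM). None of 3 tested T and NK cell markers passed by these tools, with 2 at an unadjusted p under 0.05 (median -0.79, although their summed level overlapped, at 38.6 to 47.1 and 40.6 to 49.3 CPM), and none of the 12 markers of proliferating precursors passed, with 1 at that level (178 to 223 and 161 to 210 CPM); 1 of them was called lower without KO 2 and with no filter on low counts. No marker in these lists was at 0 in all libraries. The part of these shifts in the Malat1 difference was not tested, and in bulk samples fewer cells of a type and less RNA per cell cannot be told apart.

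Neat1 (ENSMUSG00000092274) is a lincRNA gene of 20771 bases on chromosome 19 at 5824708 to 5845478, minus strand, with 4 transcripts. The short isoform, here Neat1-202 of 3004 bases, is polyadenylated, and the long isoform, here Neat1-201 of 20771 bases, is the one needed to build a paraspeckle. Neat1-202 ends 14 bases after an AATAAA. The long isoform ends, like mature Malat1, with encoded A bases and no AATAAA in its last 60 bases. Both ends are printed with the AATAAA or the runs of 4 or more A in capitals, as chr19:5842307-5842366 and chr19:5824708-5824767 (minus strand). The letters gcAAAA that close Neat1-201 also follow the run of 12 A in the Malat1 sequence above.
Neat1-202 end: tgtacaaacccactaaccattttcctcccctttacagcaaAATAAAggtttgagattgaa
Neat1-201 end: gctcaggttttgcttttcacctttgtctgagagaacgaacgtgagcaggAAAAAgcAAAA

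Neat1 had 825, 662 and 625 CPM in WT 1, 2 and 3 and 782, 699 and 662 CPM in KO 1, 2 and 3. WT 1 and KO 1 were again the highest libraries of their groups, and the groups overlapped. The means were 704 ± 107 and 715 ± 61.5 CPM (SD, n = 3; log2 fold change 0.02, SE 0.10, edgeR adjusted p = 0.957). The 95% interval of the difference, -0.19 to 0.23 on the log2 scale, leaves room for changes of that size in either direction, and the sign changed with the scaling (-0.08 with total counts, -0.0012 with upper-quartile factors). Short and long isoforms are not separated in the table. Exons of 3 small annotated RNA genes overlap those of Neat1, and all 3 had 0 counts. The gene on its far side, Frmd8os on the plus strand, starts 145 bases away and was near the filter limit, at 1.02 CPM in the libraries labelled WT and 1.43 CPM in those labelled KO (log2 0.50, adjusted p = 0.807).

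Within a library the 2 nuclear RNAs can be compared with no scaling factor. There were 1.42, 1.52 and 1.49 Malat1 counts for each Neat1 count in WT 1, 2 and 3. The same ratio was 1.08, 0.998 and 1.03 in KO 1, 2 and 3. Malat1 therefore had more counts than Neat1 in every library labelled WT, and the 2 counts were close to even in every library labelled KO. Tags per RNA may differ between the 2 genes, whose primed ends are not known. The ratio can thus be compared between libraries but does not give which RNA was more abundant. The ratio was 1.48 ± 0.050 and 1.04 ± 0.041 (SD, n = 3), a difference of -0.51 on the log2 scale. An exact two-sided permutation test of the log2 ratio gave p = 0.1, the smallest p that 3 against 3 libraries can give. The ratio reuses the Malat1 and Neat1 counts given above, so it is not a separate test of the Malat1 difference. The ratio spread less between replicates than either RNA did: its relative spread was 3.35% and 3.98% in the libraries labelled WT and KO, against 11.9% and 12.1% for Malat1 and 15.2% and 8.60% for Neat1. Together the pair took 0.165% to 0.207% of the counts of the libraries labelled WT and 0.132% to 0.157% of those labelled KO.

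**Figure D3:**
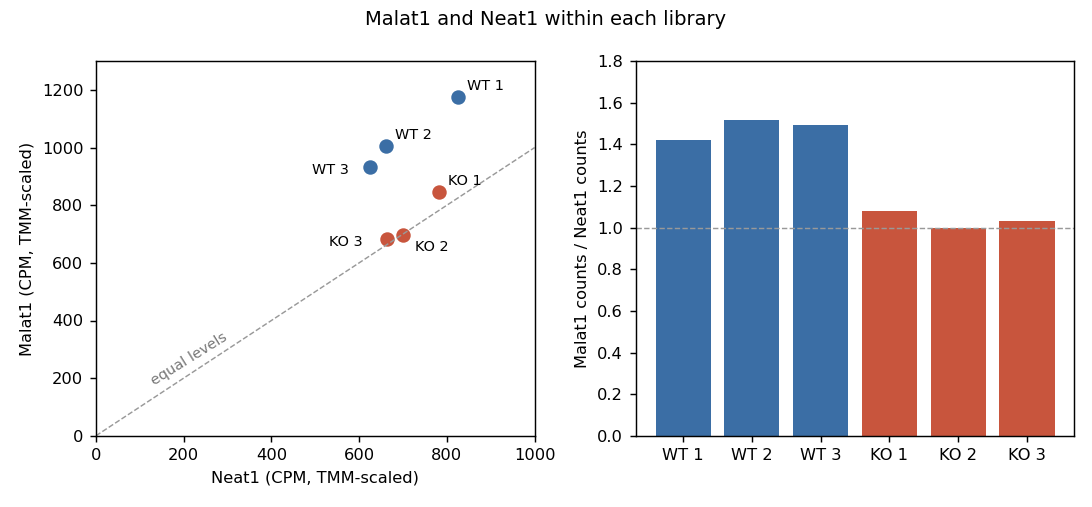
Left, Malat1 against Neat1 in CPM (scaled by TMM factors) in each library, with a dashed line of equal levels in CPM. Right, the ratio of their counts in each library, with bars from 0 and a dashed line at 1. Ratios are 1.42 to 1.52 in the libraries labelled WT and 0.998 to 1.08 in those labelled KO.

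Levels of these RNAs spanned a wide range, Malat1 being highest and Snhg12 lowest. A 3′ tag library gives about 1 tag per RNA end, so CPM were not divided by length; priming at internal A-rich stretches, one of which Neat1-201 holds near base 11350, would add tags to long RNAs. In the libraries labelled WT Malat1 (933 CPM or more) lay above Neat1 (825 CPM or less), whereas their ranges overlapped in the libraries labelled KO. Gas5 followed at rank 2172 of the tested genes, Snhg8 at 3123, Snhg1 at 5939, Snhg5 at 6692 and Snhg12 at 7247. Gas5 and Snhg8 did not overlap each other or their neighbours in the order in either group. Snhg5 and Snhg12 overlapped in both groups, and Snhg1 overlapped Snhg5 and Snhg12 in the libraries labelled KO only.

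The 5 snoRNA hosts are short genes with snoRNA genes inside them. GENCODE vM21 places 10 genes of its snoRNA class within Gas5, 8 in Snhg1, 5 in Snhg12, 2 in Snhg5 (Snord50a and Snord50b) and 1 in Snhg8 (Snora24). Snord80 in Gas5 and Snora16a in Snhg12 each have 2 overlapping entries among these genes, all at 0 counts. Snord RNAs guide 2′-O-methylation and Snora RNAs guide pseudouridylation. The table has rows for all 26, and the snoRNAs themselves, which carry no poly(A) tail, were hardly seen: 9 of the 26 had any count, 67 counts in all, beside 5546 counts for the 5 hosts over the 6 libraries. The host counts therefore do not give the level of the snoRNAs. Annotated exons of each host overlap its snoRNA genes on the same strand. Spliced and unspliced host RNAs are not separated in the table. Windows of 60 bases around the start sites (RefSeq, GRCm38.p6) are printed below. Capitals mark a C followed by at least 4 pyrimidines that began within 10 bases of the start site on the gene's strand. This rule is looser than a 5′ TOP at the first base of the RNA. Relative to the start site the tract began at 0 in Snhg8, -1 in Gas5, -2 in Snhg12 and 9 in Snhg5. RefSeq promoters were found for 6 of the 7 genes. Of the hosts, 4 of 5 had such a tract, which 34.4% of all 27025 genes in the same table have. Gas5 is shown at the second of its start sites, the first having none, and Snhg1 did not meet the rule.
Gas5, chr1:161035151-161035210, plus strand: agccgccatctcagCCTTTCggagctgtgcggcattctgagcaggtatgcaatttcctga
Snhg12, chr4:132308663-132308722, plus strand: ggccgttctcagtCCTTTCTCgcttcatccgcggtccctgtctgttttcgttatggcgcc
Snhg8, chr3:123508292-123508351, minus strand: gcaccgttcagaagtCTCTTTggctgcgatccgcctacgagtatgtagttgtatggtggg
Snhg5, chr9:88522853-88522912, minus strand: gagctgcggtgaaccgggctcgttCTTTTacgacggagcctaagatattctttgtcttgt
Snhg1, chr19:8723472-8723531, plus strand: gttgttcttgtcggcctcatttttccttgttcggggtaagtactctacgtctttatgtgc

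Gas5 (growth arrest specific 5; ENSMUSG00000053332, chromosome 1, 161034422 to 161038539, plus strand, 25 transcripts) is known to accumulate when translation or growth stops and has been described as a decoy of the glucocorticoid receptor. It had 50.5, 56.1 and 59.0 CPM in WT 1, 2 and 3 and 61.3, 60.8 and 57.8 CPM in KO 1, 2 and 3. The lowest library labelled KO lay below the highest labelled WT, so the groups overlapped. The means were 55.2 ± 4.3 and 59.9 ± 1.9 CPM (SD, n = 3; log2 fold change 0.12, SE 0.09, edgeR adjusted p = 0.707), with an interval of -0.08 to 0.32. Gas5 had a relative spread of 7.78% and 3.14% in the libraries labelled WT and KO, beside a counting error of 4.63% and 4.65%. The opposite-strand gene Zbtb37, whose gene body overlaps that of Gas5, was at log2 0.57 (SE 0.23, adjusted p = 0.344).

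Snhg8 (ENSMUSG00000104960, chromosome 3, 123507552 to 123508404, minus strand), host of the H/ACA RNA Snora24, was the second most abundant host. It had 28.8, 29.3 and 39.0 CPM in WT 1, 2 and 3 and 49.9, 29.1 and 31.6 CPM in KO 1, 2 and 3. KO 1 alone stood above the rest, and the other libraries labelled KO lay within the WT-labelled range. The log2 fold change was 0.19 (SE 0.18, interval -0.20 to 0.59, edgeR adjusted p = 0.779), and without KO 1 it was -0.09.

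Snhg1 (ENSMUSG00000108414, chromosome 19, 8723475 to 8726443, plus strand) hosts C/D box RNAs such as Snord22. It had 11.3, 11.3 and 12.4 CPM in WT 1, 2 and 3 and 11.7, 5.43 and 7.68 CPM in KO 1, 2 and 3. KO 2 and KO 3 were lower than every library labelled WT, and KO 1 was within their range. The log2 fold change of -0.49 (SE 0.24, interval -1.003 to 0.025) was as large as that of Malat1 but did not pass the test (edgeR adjusted p = 0.471), and it ran from -0.81 without KO 1 to -0.28 without KO 2. Its counts were 37 to 111 per library, for a counting error of 10.1% and 12.5%. Slc3a2, the amino acid transporter subunit gene that starts 106 bases away on the opposite strand, was at 96.7 CPM in the libraries labelled WT and 76.3 CPM in those labelled KO (log2 -0.34, SE 0.11, adjusted p = 0.206).

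Snhg5 and Snhg12 were the rarest of the 7 RNAs. Snhg5 (ENSMUSG00000097195, chromosome 9, 88521050 to 88522929, minus strand) had 8.93, 6.01 and 5.78 CPM in WT 1, 2 and 3 and 8.07, 6.02 and 7.35 CPM in KO 1, 2 and 3. The KO-labelled range lay within the WT-labelled one, with means of 6.91 ± 1.8 and 7.14 ± 1.0 CPM (SD, n = 3; log2 0.05, SE 0.24, interval -0.47 to 0.57, edgeR adjusted p = 0.957), and the sign turned with total counts (-0.05). Snhg12 (ENSMUSG00000086290, chromosome 4, 132308623 to 132311024, plus strand), host of RNAs of both classes, had 6.24, 5.30 and 5.78 CPM in WT 1, 2 and 3 and 4.03, 8.36 and 3.01 CPM in KO 1, 2 and 3. KO 2 was the highest library and KO 3 and KO 1 the lowest. The spread among the libraries labelled KO (55.4%) was wider than their counting error (16.2%), and the difference did not pass (log2 -0.19, SE 0.34, interval -0.91 to 0.53, edgeR adjusted p = 0.892). Snhg12 had 27 to 57 counts per library.

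**Figure D4:**
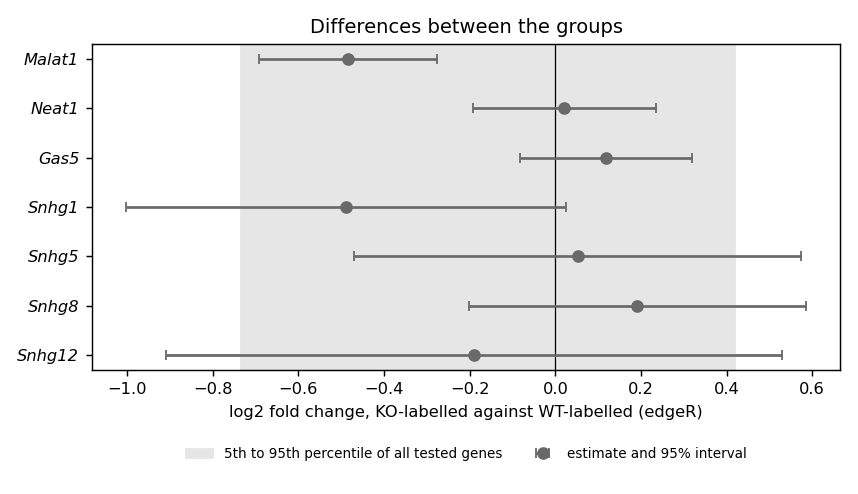
Log2 fold change (x axis) of each of the 7 RNAs with its 95% interval from the edgeR fit, over a grey band from the 5th to the 95th percentile of all tested genes (-0.73 to 0.42). The interval of Malat1 (-0.69 to -0.28) lies below 0; the intervals of the other 6 include it, and those of Snhg1, Snhg5, Snhg8 and Snhg12 are the widest.

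Related gene groups held few genes that passed, and their values are set beside the median of 0.0057 and the 49.1% of genes below 0 over all genes tested. The lists were described by counts only. Over all 10397 genes tested, 1183 had an unadjusted p under 0.05 by edgeR, and the list counts are to be read beside that share. Of 16 other non-coding snoRNA hosts 13 were in the table and 5 had enough counts; none of these 5 passed by edgeR, DESeq2 or limma-voom, with 1 at an unadjusted p under 0.05 by edgeR (median -0.07, 4 of 5 below 0). The most abundant, Zfas1, was at 24.3 ± 2.6 and 22.8 ± 3.3 CPM (SD, n = 3; log2 -0.08, adjusted p = 0.894) and Snhg9 at 15.8 ± 2.2 and 17.9 ± 3.0 CPM (log2 0.17, adjusted p = 0.784). None of 27 genes listed as protein-coding snoRNA hosts, most of them ribosomal protein or translation genes, passed by any of the 3 tools. By edgeR 2 of the 27 had an unadjusted p under 0.05. The list median was 0.04 (-0.07 with total counts, -0.0017 without WT 2 and -0.05 without KO 1). Without KO 1, and with no filter on low counts, 1 of the 27 was called higher. Tpt1, an abundant host known as translationally controlled tumour protein, was at log2 0.15 (adjusted p = 0.369). Hsp90ab1, a chaperone gene of the list, was at -0.15 (0.528), although GENCODE vM21 places no snoRNA gene inside it.

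The snoRNP list, the proteins that assemble with or mature the snoRNAs, lay mostly below 0. Of its 14 tested genes 13 were below 0 (12 with DESeq2), with a median of -0.30 (-0.41 to -0.30 over the scaling alternatives). None passed by edgeR, DESeq2 or limma-voom, and 3 had an unadjusted p under 0.05 by edgeR. In fits without 1 library 11 (without WT 2 or KO 1) to 13 were below 0. The median ran from -0.43 (without WT 2) to -0.28 (without KO 3). At an unadjusted p under 0.05 were 0 (without KO 3) to 4 (without KO 1). With a minimum of 5 CPM in 3 libraries 9 genes of the list were left, all 9 below 0. Their median was weaker, at -0.22, so part of the list median came from genes of low count. Nop58, a core protein of C/D box particles, was at 8.08 ± 1.6 and 4.68 ± 1.5 CPM (SD, n = 3), a log2 fold change of -0.78 with an SE of 0.27 (adjusted p = 0.262), and Dkc1, the pseudouridine synthase of H/ACA particles, at 7.41 ± 1.8 and 4.65 ± 1.1 CPM (log2 -0.67, SE 0.28, adjusted p = 0.370). The most abundant members, Snu13 and Pih1d1, were at -0.14 and -0.12 (adjusted p 0.790 and 0.816).

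Genes tied to turnover and translation of the host RNAs did not pass. In the nonsense-mediated decay list none of 22 tested genes passed by the 3 tools, with 0 at an unadjusted p under 0.05 (median 0.06; -0.04 with total counts, where 4 were at that level); Upf2 was at -0.0022 and the exon junction gene Rbm8a at -0.03. In the list of translation mRNAs of the TOP class none of 18 passed, with 2 at an unadjusted p under 0.05 (median -0.0076; 0.0024 with DESeq2 and -0.11 with total counts), and the elongation factor gene Eef1a1 was at 727 ± 50.1 and 680 ± 34.7 CPM (SD, n = 3; log2 -0.10, adjusted p = 0.702).

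The protein partners of the nuclear RNAs did not pass by edgeR either. Of 22 paraspeckle genes none passed by edgeR or limma-voom and 1 by DESeq2, with 4 at an unadjusted p under 0.05 by edgeR (median -0.06; -0.16 with total counts, and 0.0047 and 0.0097 without WT 2 and WT 3). Rbm3, a cold-inducible RNA-binding protein, was nearest to the threshold at 113 ± 5.2 and 144 ± 6.9 CPM (SD, n = 3), a log2 fold change of 0.34 with an SE of 0.08 (adjusted p = 0.0709), and Hnrnpk, the most abundant, was at log2 0.12 (adjusted p = 0.578). Of 16 nuclear speckle genes none passed by the 3 tools, with 2 at an unadjusted p under 0.05 (median -0.06). With total counts 2 were called lower, 6 had an unadjusted p under 0.05 and the median was -0.17. With TMM factors the 2 were Rbm25 (log2 -0.26, SE 0.08, adjusted p = 0.180) and Srsf11 (-0.25, SE 0.08, adjusted p = 0.196), both splicing factor genes, whereas the speckle scaffold gene Son was at -0.04.

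All 12 glucocorticoid target genes lay above 0 (11 with total counts), with a median of 0.24 (0.14 with total counts), and none passed by edgeR or limma-voom; DESeq2 called 1, edgeR with no filter on low counts 4, and 4 had an unadjusted p under 0.05 by edgeR. Il1r2, a decoy receptor for interleukin 1, was at 146 ± 15.7 and 188 ± 23.5 CPM (SD, n = 3), a log2 fold change of 0.36 with an SE of 0.10 (adjusted p = 0.152) and the clock gene Per1 at 31.9 ± 3.1 and 50.4 ± 17.9 CPM (log2 0.66, SE 0.20, adjusted p = 0.176). In fits without 1 library the median ran from 0.19 (without WT 2 or KO 3) to 0.37 (without KO 1), 1 gene was called without KO 1 and 0 in each of the other 5 fits (2 to 6 at an unadjusted p under 0.05), and 11 of 12 were above 0 without WT 2, WT 3 or KO 2. A shared sign was not particular to this list: of the 12 neutrophil markers 11 lay above 0 (7 with total counts). Of these markers 7 had an unadjusted p under 0.05 by edgeR. The median of the 12 neutrophil markers was 0.15 (0.04 with total counts), and 2 of them rose (3 with DESeq2, 1 with total counts or without WT 1, WT 3, KO 1 or KO 2, 3 without WT 2 or KO 3).

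**Figure D5:**
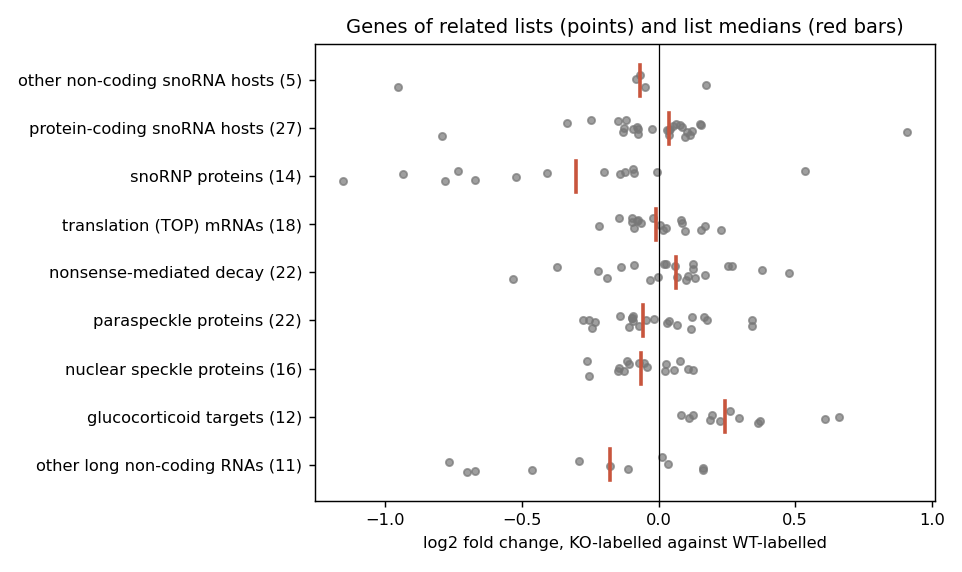
Log2 fold change (x axis) of the tested genes of 9 related lists (grey points; number of genes in parentheses) with the list median (red bar). Of the snoRNP genes 13 of 14 lie below 0 (12 with DESeq2, 11 without WT 2 or KO 1). All 12 glucocorticoid targets lie above 0 (11 with total counts, and without WT 2, WT 3 or KO 2). No gene shown passed the threshold in edgeR's quasi-likelihood test.

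The genes whose pattern over the 6 libraries was most like that of Malat1, Neat1 and Gas5 are given as a description, since with 6 libraries and 5929 genes of at least 10 CPM compared, high correlations of log2 CPM can arise by chance and the libraries share the group difference and their depth. For Malat1 they were Gpr107 (Pearson r 0.989), Zfp608 (0.986) and Ppig (0.980), a nuclear cyclophilin gene, with log2 fold changes of -0.26, -0.40 and -0.30 and no call. For Neat1 they were Klf2, a transcription factor gene of leukocyte quiescence (0.974), Ciao2b (0.965) and Tlk2 (0.964). For Gas5 they were Dach1 (0.991), Arpc3, a subunit gene of the actin-nucleating Arp2/3 complex (0.987), and Ern1, the stress sensor of the endoplasmic reticulum (0.987).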

How the data were processed

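RNA from 6 libraries (3 labelled WT, 3 labelled KO) of Ly6G-selected bone marrow neutrophils was read as QuantSeq 3′ tags, per the labels' protocols. The authors deposited whole-number read counts per Ensembl gene, unscaled. The submitters' processing notes list RSEM 1.2.3, DESeq2 and mm10 without role or order; aligner, annotation, strand setting and filters are not stated. Strand being unknown, reads of overlapping or antisense genes cannot be told apart. Columns were matched to samples by name. Names and coordinates came from GENCODE vM21 (51596 of 51789 identifiers matched; the others held 0.00812% of counts), promoters from RefSeq GRCm38.p6.

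The quasi-likelihood test of edgeR 4.0.16 (R 4.3.3) was run on the counts with TMM factors, filterByExpr (minimum count 10, minimum total 15), group as the one term and Benjamini-Hochberg adjustment over 10397 genes at 0.05. SE is the log2 fold change divided by the root of F, and 95% intervals use the fit's t quantile. CPM for correlations had a prior count of 2. Snph used log2(CPM + 0.1). Within groups, replicate pairs differed by 4.12 to 6.79 chi-square units per degree of freedom, so none agreed within sampling noise. On data simulated for this comparison over 10130 genes, 46% of genes raised 1.5-fold and 62.2% of genes lowered to 0.5 were called. The shares were 83.7% for genes raised 2-fold and 96% for 3-fold. The simulated spread followed the trend with abundance and not each gene's own spread. A decrease as small as that of Malat1 was not simulated.

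The members and lists were chosen with earlier results of these data known. Named are the 7 genes, the 2 most abundant and 2 smallest-p members of each list, 3 genes most like Malat1, Neat1 and Gas5, Snph, nearest or overlapping tested genes, and genes said to be chosen after their values were seen; not all are printed. Alternatives were DESeq2 1.42.0, limma-voom (limma 3.58.1), RLE, upper-quartile and total-count scaling, no filter, a replicate block, a minimum of 5 CPM in 3 libraries, and leaving out each library.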

Additional observations from a re-analysis of the deposited data

How the results depend on the processing

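The number of called genes, 107, was 82 to 146 with DESeq2, limma-voom, RLE or upper-quartile factors, the stricter filter and the replicate block (92 calls). It was 162 with total counts only, 287 with no filter on low counts, and 49 to 97 when 1 library was left out. Total-count scaling moved the median of all genes from 0.0057 to -0.10. Malat1 was the gene called among the 7 in each fit on all libraries, and the count was 0 to 1 in fits without 1 library (0 without WT 1, WT 2, KO 2 or KO 3; edgeR, 1, 1, 2 and 1 at an unadjusted p under 0.05). Fewer libraries leave fewer degrees of freedom.

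None of the other 6 RNAs gained a call. Neat1 turned to -0.0012 with upper-quartile factors and -0.083 with total counts, and ran from -0.055 to 0.15 without 1 library. Snhg5 turned to -0.049 with total counts and ran from -0.051 to 0.28 without 1 library, Snhg8 from -0.085 to 0.35, and Snhg12 from -0.72 to 0.094. Gas5 stayed above 0 (0.01 to 0.17) and Snhg1 below 0 (-0.81 to -0.28) in all 14 alternatives. The cause of these turns was not tested. The replicate block changed no call among the 7 (Malat1 adjusted p = 0.00468); the numbers were not found to pair the libraries, since the deviations of same-numbered libraries correlated at -0.03, -0.01 and -0.13 and none correlated best with its own number. Counts of Snhg5 and Snhg12 were lowest, at 27 to 73 per library, and their spread between libraries was above the counting error in the libraries labelled WT for Snhg5 (25.4% against 13.1%) and in those labelled KO for Snhg12 (55.4% against 16.2%).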

Other observations

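Other long non-coding RNAs of the neutrophil libraries, from a list of 28, were measured in 11 cases, and none passed the test by edgeR, DESeq2 or limma-voom, with 2 at an unadjusted p under 0.05 by edgeR. With total counts 1 was called lower. Mirt1, the most abundant, was at 262 ± 17.2 CPM in the libraries labelled WT and 265 ± 22.5 CPM in those labelled KO (SD, n = 3; log2 0.01, edgeR adjusted p = 0.970). Mir142hg, the host of the leukocyte microRNA miR-142, was at 174 ± 28.01 and 195 ± 29.8 CPM (log2 0.16, adjusted p = 0.688). The 2 RNAs with the smallest p both act on chromatin in cis. Xist, the RNA of X inactivation, was at 171 ± 3.1 and 140 ± 11.3 CPM (log2 -0.29, SE 0.08, adjusted p = 0.154), and it was present in all 6 libraries. Kcnq1ot1, an imprinted RNA, was at 11.8 ± 1.4 and 7.20 ± 1.7 CPM (log2 -0.70, SE 0.22, adjusted p = 0.180). H19, Miat, Mir155hg, Trp53cor1 and Terc had no count in any library.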
